A study of Chlamydomonas reinhardtii with 12 samples.

Results

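The genes described here are nearly silent in fresh cultures of the green alga Chlamydomonas reinhardtii and carry clear counts once the culture is old. They were chosen from the deposited count table as IDs with at most 3 counts in each of the 6 control libraries and at least 20 counts in at least 5 of the 6 nutritional stress libraries. The rule names a pair of IDs, Cre09.g410950 and Cre12.g551353, that are left out, and 16 of the 17741 IDs in the table remain. The values that chose them are therefore the counts in control and stress, and the contrast of stress with control is given below as a description. The rule sets the same count limit for both genotypes in stress, though not the same level, because library sizes differed. The comparison of the genotypes in old cultures was tested, but only among genes that the stress counts of both genotypes had let in.

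All samples carry the strain label CC-1690. The 4 groups, with 3 libraries each, were wild-type control, wild-type nutritional stress, vip1-1 control and vip1-1 nutritional stress, and the design text calls vip1-1 inositol pyrophosphates-deficient. Liquid TAP medium (Tris-acetate-phosphate) was used, at a temperature of 25 °C and a photon flux of 50 µmol per square metre per second, for 24 h in control and for 14 days in stress, so that culture age and nutrient state changed together. The labels name neither the nutrient that ran out nor how vip1-1 was made, and they do not say whether it is 1 clone.

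Inositol pyrophosphates are small signalling molecules in which an inositol ring carries a diphosphate group, and VIP1 kinases are among the enzymes that make them. In yeast and land plants they are bound by SPX domains, through which they take part in phosphate sensing. TAP medium supplies acetate as a carbon source and ammonium as a nitrogen source. When nitrogen runs out, Chlamydomonas stops dividing, recycles chlorophyll and ribosomes, stores starch and oil, and can differentiate into gametes. The annotation table used here matched all 16 genes by locus tag but gives no names or products for them, so they are called by ID and no function is stated.

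Libraries held between 9749837 and 28833327 counts. A set of 4 features that each held over 5% of the counts of some library took between 0.537% and 68.0% of a library, and from 24.8% to 63.6% in wild-type stress against 1.18% to 45.0% in vip1-1 stress. Levels are therefore given as CPM (the usual counts-per-million unit on TMM-scaled library sizes, where TMM is the trimmed mean of M values), unless FPKM is named. The TMM library size ran from 8110833 to 17124553 in wild-type stress and from 15873942 to 27638513 in vip1-1 stress, so 20 counts stood for 1.17 to 2.47 CPM in the former and 0.724 to 1.26 CPM in the latter.

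In the fresh cultures the 16 genes together had 16 counts out of 119858225 over 6 libraries. Of these, 1 count fell in wild-type and 15 in vip1-1, whose control libraries held 20162778 to 27960505 counts outside the 4 abundant features, against 3122872 to 19893556 in wild-type. There were 10 genes at 0 in all 6 control libraries. The other 6 had a count in vip1-1 control, and 1 of them, Cre35.g759497, also had 1 count in wild-type control replicate 1. In old cultures 12 of the 16 reached 20 counts in all 6 libraries and 4 did so in 5. The silence is least certain in wild-type control replicate 1, where 3 counts stand for 0.892 CPM. In the other 5 control libraries 3 counts stand for 0.0769 to 0.219 CPM. Intervals and floors from counts cover counting error only.

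The limits of the rule cut through a gradual distribution. Just inside the control limit were Cre12.g496402, with 0, 3 and 2 counts in vip1-1 control, and Cre17.g703800, with 0, 0 and 3. Just outside it were 13 genes whose highest control count was 4, 5 or 6, among them Cre01.g012700 with 384, 152 and 183 counts in wild-type stress, 240, 481 and 331 in vip1-1 stress, and 4 counts in 1 control library. Just inside the stress limit were Cre04.g227600, Cre09.g393000, Cre09.g399663 and Cre12.g496402, each under 20 counts in 1 stress library. A further 11 genes reached 20 counts in 4 stress libraries. The mirror rule, at most 3 counts in all stress libraries and at least 20 in 5 control libraries, chose 14 genes.

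Since a gene had to reach 20 counts in 5 stress libraries, one that came on in a single genotype could not enter. Outside the 16, 12 genes with at most 3 counts in all controls reached 20 counts in all 3 vip1-1 stress libraries but not in enough wild-type ones, against 1 gene, Cre09.g410800, in the reverse case. The vip1-1 stress libraries also held more counts by TMM size, and the part of that in these numbers was not tested. Cre13.g572750 stood at 0, 0 and 3 counts in wild-type stress and at 52, 114 and 105 in vip1-1 stress.

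Within old cultures the 16 genes differed widely in level. By the deposited FPKM (fragments normalized by transcript length and sequencing depth), which allows genes of different length to be compared, the mean over the 6 stress libraries ran from 0.367 for Cre09.g399663 to 41.4 for Cre10.g442800, a 113-fold range. The median of these means was 3.13 FPKM, beside 2.84 over all IDs of the table, and 9 of the 16 lay above that value. Cre10.g442800 stood at 49.1, 20.3 and 16.8 FPKM in wild-type stress and at 70.8, 58.3 and 33.1 FPKM in vip1-1 stress. Its mean was higher than that of 95.5% of all IDs. The next were Cre03.g159254 at a mean of 12.6 FPKM, Cre35.g759497 at 10.1 FPKM and Cre14.g629920 at 8.19 FPKM. Cre14.g617200, Cre02.g093500, Cre02.g108550, Cre04.g227600 and Cre08.g360050 lay between 3.08 and 6.09 FPKM. Cre17.g703800, Cre01.g007450, Cre12.g496402, Cre09.g393000, Cre02.g143801 and Cre02.g099400 lay between 1.56 and 2.73 FPKM. FPKM was scaled to the whole library, abundant features included, so it is used here to order genes and not to compare the genotypes.

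**Figure D1:**
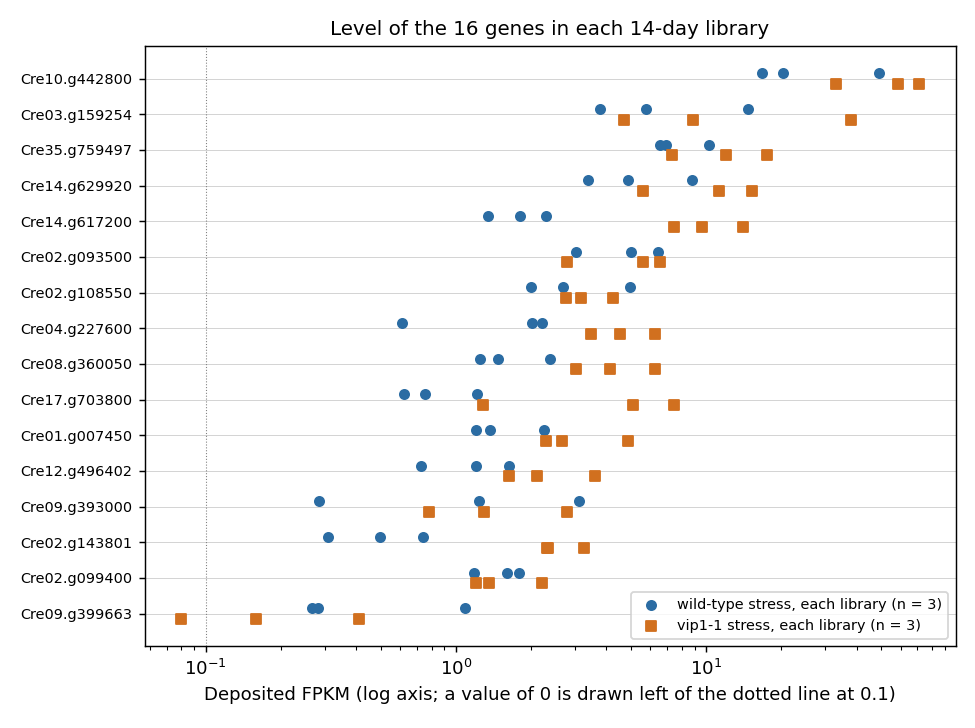
Deposited FPKM (log axis) of the 16 genes in each of the 6 nutritional stress libraries, with circles for wild-type and squares for vip1-1 and the genes ordered by their mean over the 6 libraries. Cre10.g442800 is the highest at a mean of 41.4 FPKM and Cre09.g399663 the lowest at 0.367 FPKM, with 1 vip1-1 library listed at 0.

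Summed over the 16 genes, the level was 289, 269 and 224 CPM in wild-type stress and 366, 373 and 347 CPM in vip1-1 stress. On this scale all 3 vip1-1 libraries lay above all 3 wild-type libraries. As CPM of the unscaled library totals, abundant features included, the sums were 340, 160 and 170 in wild-type stress and 549, 521 and 305 in vip1-1 stress, and the genotypes overlapped. The means were 261 ± 33.1 CPM (SD, n = 3) and 362 ± 13.6 CPM (SD, n = 3). Cre10.g442800 alone held between 36.0% and 52.3% of the sum. Without it the sum came to 142 ± 3.81 CPM (SD, n = 3) in wild-type stress and 209 ± 13.5 CPM (SD, n = 3) in vip1-1 stress. Much of that gap lay in Cre14.g617200, with means of 14.9 CPM in wild-type stress and 55.6 CPM in vip1-1 stress. The log2 fold change (vip1-1 minus wild-type) was below 0 for 6 of the 16, and none of these 6 passed the genotype test described below. With library totals alone, which moved the median of all tested genes from 0.05 to 0.60, 15 of the 16 lay above 0. These sums are given without a test, since the genes were chosen with results of these data known.

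**Figure D2:**
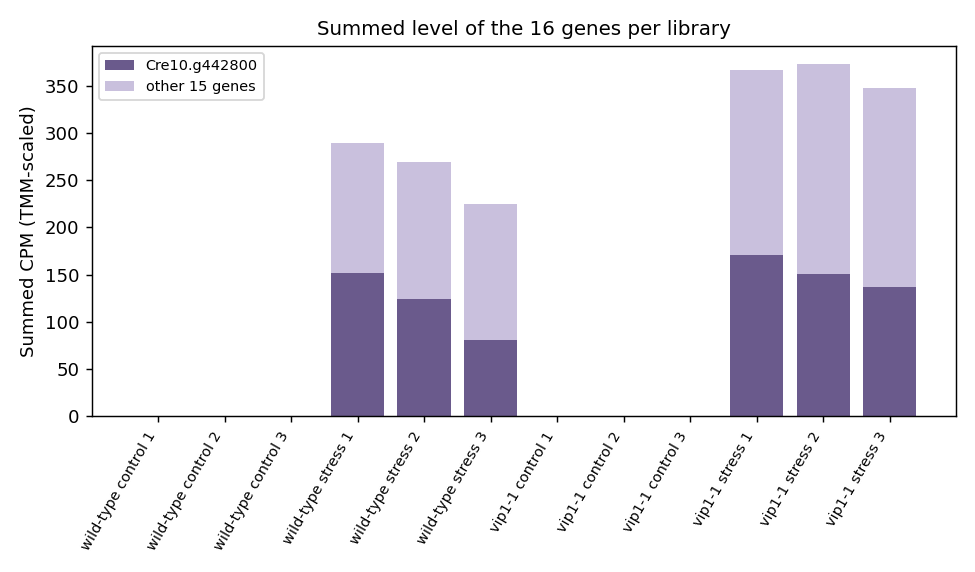
Summed CPM of the 16 genes in each of the 12 libraries, with the part of Cre10.g442800 in dark and that of the other 15 genes in light. The control libraries are at or near 0, the wild-type stress libraries lie between 224 and 289 CPM, and the vip1-1 stress libraries lie between 347 and 373 CPM on the TMM scale, while the genotypes overlap when libraries are scaled by their totals.

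Cre10.g442800 had 0 counts in all 6 control libraries. It stood at 151, 125 and 80.7 CPM in wild-type stress and at 171, 151 and 137 CPM in vip1-1 stress. Against a floor of 3 counts per control library, that is at least 292-fold higher than control in wild-type and at least 1662-fold higher in vip1-1. Wild-type control replicate 1 lowers the wild-type bound, which was 722-fold without it. The genotypes overlapped, with a log2 fold change (vip1-1 minus wild-type) of 0.36, an SE of 0.28 and an adjusted p of 0.641 in edgeR's quasi-likelihood test, adjusted by Benjamini-Hochberg over all genes tested, which is the test behind each adjusted p below unless another tool is named. All 16 genes were called higher in stress in both genotypes, beside 13.9% of the 15286 tested genes in wild-type and 12.2% in vip1-1, but that contrast is the one that chose them.

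Between genotypes in old cultures, 1 of the 16 genes was called at an adjusted p under 0.05, Cre14.g617200, which was higher in vip1-1. Over all 15286 tested genes the same test called 1.56%, with 0.975% higher in vip1-1 and 0.589% lower. The log2 fold change was above 0 for 10 of the 16 (62.5%), beside 53.1% of all tested genes. The median over the 16 was 0.39, beside 0.05 over all tested genes, and it was 0.11 without vip1-1 stress replicate 2. At an unadjusted p under 0.05 there were 2 of the 16 higher in vip1-1, beside 7.41% of all tested genes, and 0 lower, beside 7.90%.

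Cre14.g617200 had 0 counts in all control libraries. It stood at 13.1, 15.3 and 16.2 CPM in wild-type stress and at 63.1, 46.6 and 57.3 CPM in vip1-1 stress. The vip1-1 libraries all lay above the wild-type libraries, and within each genotype the highest library was 1.24 and 1.35 times the lowest. The means of 14.9 ± 1.59 CPM and 55.6 ± 8.35 CPM (SD, n = 3 each) give a ratio of 3.74. The log2 fold change was 1.90 with an SE of 0.26 (edgeR adjusted p 0.0177). The call was lost without wild-type stress replicate 1 or 2, or without any 1 of the vip1-1 stress replicates. In those 5 fits the log2 fold change stayed between 1.80 and 2.02 and the adjusted p ran from 0.0559 to 0.106 in edgeR. The call was also lost with library totals alone (edgeR adjusted p 0.0784), with a replicate block over all 12 libraries (0.0529) and with that block in the 6 stress libraries (0.110), so that 8 of 22 alternatives ended it, all with vip1-1 still higher.

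Cre02.g143801 showed a difference of similar size at a lower level. It was at 0 in all control libraries, at 4.96, 4.19 and 5.26 CPM in wild-type stress and at 17.1, 12.95 and 20.98 CPM in vip1-1 stress. Its genotypes did not overlap, and the ratio of the means was 3.54. The log2 fold change of 1.82 (SE 0.41) did not pass the adjusted threshold, at an edgeR adjusted p of 0.0868. It did pass in 5 alternatives, among them DESeq2, the fit to the 6 stress libraries and the fits without wild-type control replicate 1 or 3.

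Cre08.g360050 was the third gene whose vip1-1 libraries all lay above wild-type. It stood at 10.8, 13.3 and 8.82 CPM in wild-type stress and at 22.1, 15.7 and 18.5 CPM in vip1-1 stress. Its log2 fold change was 0.77 with an SE of 0.34 (edgeR adjusted p 0.346). It passed in 1 alternative, limma voom with sample quality weights, at 0.55 with an adjusted p of 0.0142. That fit called 4023 of the 15286 tested genes and 5 of the 16, so a pass there is common. The 3 genes make up 18.8% of the 16, and 17.7% of all tested genes also had all vip1-1 stress libraries above all wild-type ones, so that share is near the background.

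In the opposite direction, 2 genes (12.5% of the 16) had all wild-type libraries above all vip1-1 libraries, beside 13.7% of all tested genes. Cre02.g093500 stood at 24.2, 22.6 and 29.5 CPM in wild-type stress and at 19.3, 17.7 and 14.1 CPM in vip1-1 stress, and its log2 fold change was -0.58 with an SE of 0.41 (edgeR adjusted p 0.585). Cre02.g108550 stood at 12.1, 9.74 and 10.3 CPM in wild-type stress and at 6.08, 8.72 and 9.07 CPM in vip1-1 stress, with a log2 fold change of -0.43 (SE 0.57). Neither passed the edgeR test. Cre02.g093500 passed in 1 alternative, limma voom with sample quality weights, at -0.59 with an adjusted p of 0.00436. That fit called 4023 of the 15286 tested genes. Scaling by library totals alone moved the median of all tested genes from 0.05 to 0.60, and with it Cre02.g093500 to 0.04 and Cre02.g108550 to 0.07, which are still below that median.

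Of the 11 genes whose genotypes overlapped, 6 had an SD of log2 CPM under 0.7 in both genotypes. Besides Cre10.g442800, these were Cre14.g629920, Cre35.g759497, Cre02.g099400, Cre01.g007450 and Cre12.g496402. The upper quartile of that SD over all tested genes was 0.67 in wild-type and 0.55 in vip1-1, so the limit of 0.7 does not mark a low spread. Cre35.g759497 was the closest to equal, at 6.72, 8.51 and 7.04 CPM in wild-type stress and 9.002, 6.55 and 6.43 CPM in vip1-1 stress. Its log2 fold change was -0.02 with an SE of 0.68. Differences of several times the SE can go uncalled, since the 1.82 of Cre02.g143801 (SE 0.41) was not called in the same fit. Cre01.g007450 stood at 4.91, 5.30 and 4.69 CPM in wild-type stress and 8.30, 4.85 and 6.74 CPM in vip1-1 stress. Cre02.g099400 stood at 5.14, 7.52 and 9.01 CPM in wild-type stress and 5.55, 3.26 and 5.86 CPM in vip1-1 stress. Cre14.g629920, at 23.5, 25.9 and 14.2 CPM against 23.6, 34.2 and 20.1 CPM, and Cre12.g496402, at 2.10, 3.08 and 1.501 CPM against 2.16, 3.91 and 2.83 CPM, were the other members of this set.

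**Figure D3:**
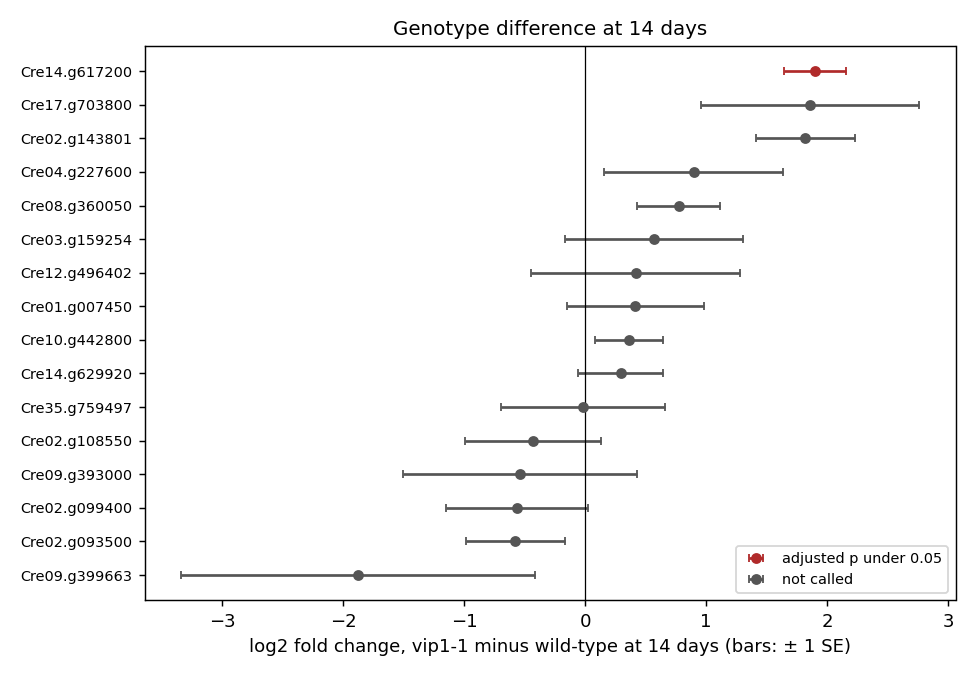
Log2 fold change of vip1-1 minus wild-type in the 14-day cultures for each of the 16 genes, with bars of 1 SE to each side (edgeR, 3 libraries per genotype). Cre14.g617200, at 1.90, is the gene that passed the adjusted threshold, 10 genes lie above 0 and 6 below, and with libraries scaled by their totals alone, which moves the median of all tested genes from 0.05 to 0.60, 15 lie above 0.

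The other 5 genes had an SD of log2 CPM of 0.7 or more in at least 1 genotype, and the scatter came from different libraries. Cre03.g159254 stood at 20.5, 16.03 and 8.26 CPM in wild-type stress and at 5.14, 44.4 and 16.7 CPM in vip1-1 stress. Its vip1-1 libraries differed 8.64-fold from lowest to highest, from counts of 88, 1228 and 265. The log2 fold change between genotypes was 0.57 (SE 0.73), and it was -0.45 without vip1-1 stress replicate 2. Cre17.g703800 stood at 1.99, 3.21 and 4.97 CPM in wild-type stress and at 2.63, 16.2 and 17.8 CPM in vip1-1 stress, so that vip1-1 stress replicate 1 lay within the wild-type range. Its log2 fold change of 1.85 was as large as that of Cre02.g143801, but with an SE of 0.90 (edgeR adjusted p 0.375). It passed in 1 alternative, limma voom with sample quality weights, at 2.50 with an adjusted p of 0.00181. That fit called 4023 of the 15286 tested genes.

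Cre04.g227600 was scattered in wild-type and even in vip1-1. It stood at 2.86, 5.18 and 1.31 CPM in wild-type stress and at 6.37, 4.96 and 6.05 CPM in vip1-1 stress, with SDs of log2 CPM of 0.98 and 0.19. Cre09.g393000 varied in both genotypes, at 2.80, 1.36 and 10.8 CPM in wild-type stress and 4.91, 1.48 and 3.91 CPM in vip1-1 stress. Its log2 fold change was -0.54 (SE 0.97) and turned to 0.71 without wild-type stress replicate 3. Cre09.g399663 had counts of 34, 30 and 126 in wild-type stress and of 0, 26 and 61 in vip1-1 stress. It was the one gene of the 16 with a stress library at 0, and the SE of its log2 fold change of -1.87 was 1.46.

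Spread between replicates was compared over the 16 genes as the SD of log2 CPM within each genotype, without a test. The median SD was 0.44 in wild-type and 0.37 in vip1-1, beside 0.38 and 0.32 over all tested genes. Counted gene by gene the order was the opposite, since the SD was larger in wild-type for 6 of the 16 genes (37.5%), beside 54.6% of all tested genes. This count was 2 without wild-type stress replicate 3, beside 26.2% of all tested genes, and otherwise between 5 and 8. Neither genotype was thus the more variable by both measures. The rule itself limits low values in at least 5 of the 6 stress libraries, which restricts the spread of its genes but does not bound it. The rule sets no upper limit and leaves the remaining library free. Cre09.g399663 thus had an SD of 3.76 in vip1-1 stress.

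At low counts, counting error alone gives an SD of a size seen here. The SD of log2 CPM that counting alone would give had a median over the genes of 0.16 in wild-type stress and 0.12 in vip1-1 stress. In wild-type, 2 genes lay below that value. One was Cre01.g007450, with an SD of 0.09 against 0.20 from counting. The other was Cre02.g143801, with 0.17 against 0.20. In vip1-1 no gene with counts in all 3 libraries lay below it. The SD exceeded 3 times the counting value for 6 genes in wild-type and for 10 of those with counts in all 3 libraries in vip1-1. The counting value itself was lower in vip1-1, so these numbers do not compare the spread of the genotypes. The share over all tested genes was not computed. Cre10.g442800, with mean counts of 1486 and 3088, had SDs of 0.46 in wild-type and 0.16 in vip1-1, against 0.042 and 0.027 from counting.

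**Figure D4:**
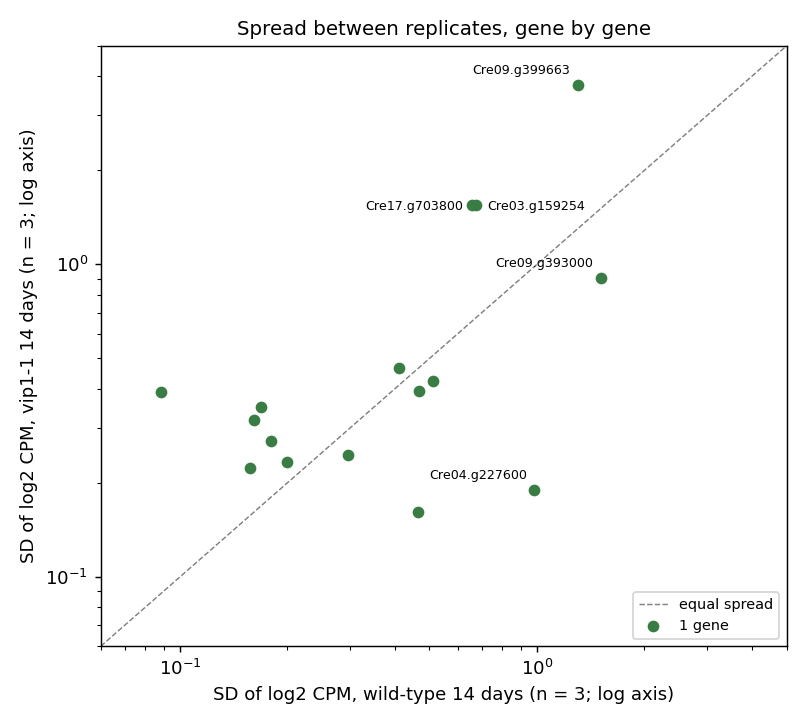
SD of log2 CPM over 3 replicates in the 14-day cultures for each of the 16 genes, wild-type on the horizontal and vip1-1 on the vertical axis (both log axes), with a dashed line of equal spread. There are 6 genes below the line, with the larger SD in wild-type, and 10 above it, and the 5 genes with an SD of 0.7 or more are named.

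The highest and the lowest library differed from gene to gene. In wild-type stress, replicate 3 was the highest library for 7 genes and the lowest for 7, where it was highest for 35.4% and lowest for 49.0% of all tested genes. In vip1-1 stress, replicate 1 was the highest for 8 genes and the lowest for 5, where it was highest for 35.4% and lowest for 51.4% of all tested genes. The median deviation of the 16 genes from their group mean stayed between -0.08 and 0.16 on the log2 scale in all 6 libraries.

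The genes were scattered along the genome. In the gene order of the assembly Chlamydomonas_reinhardtii_v5.5 they fell on 11 sequences, 0 of the 16 lay next to or within 2 genes of another, and the closest pair had 199 genes between them. Of the 31 genes that directly flank them, all had over 3 counts in at least 1 control library and 22 had over 3 counts in every one. Of the 30 flanking genes tested, 10 (33.3%) were called higher in stress in wild-type and 12 (40.0%) in vip1-1. The shares of all tested genes were 13.9% and 12.2%. In each genotype 2 flanking genes (6.7%) were called lower, a smaller share than that of all tested genes. Between genotypes in stress, edgeR called 0 of the 30, beside 1.56% of all tested genes. At an unadjusted p under 0.05 there were 5 of the 30, beside 2340 of all 15286 tested genes. The flanking genes were looked at after the data had been seen. The sources used here do not state whether counting used strand, so it is not known whether reads of overlapping neighbours were kept apart. No gene of the table had counts within 10% of a member's highest count in all 12 libraries, so none of the 16 had a copy with near-identical counts.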

How the data were processed

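RNA of 12 samples was measured, 3 per group, from polyadenylated RNA libraries (TruSeq Stranded mRNA, per the labels' protocols). The authors deposited 1 table of whole-number counts per gene and 1 of FPKM values. The submitters' processing notes name HISAT2 and StringTie without versions, and the genome build, annotation and strand setting are not given in the sources used here. If the counts were derived from coverage, counting errors are approximate. The table had 0 columns without a sample.

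Members and lists were chosen with earlier results of these data known. All tests on the counts used edgeR 4.0.16 under R 4.3.3, with filterByExpr by group (15286 genes, all 16 members included), TMM scaling, a group-means model over all 12 libraries and robust quasi-likelihood tests, with Benjamini-Hochberg adjustment over all genes tested. The fit was tested on simulated data. The standard error (SE) was taken as the absolute log2 fold change over the square root of F. SDs of log2 CPM used a prior count of 0.5. Where all 3 control libraries of a genotype were at 0, a fold is a bound against the mean CPM of 3 counts per library. All 16 genes were described, so the naming rule left none out, and the annotation groups planned by product could not be formed. Alternatives used DESeq2 1.42.0 and limma 3.58.1. No replicates were duplicates, with a chi-square per degree of freedom of at least 12.8 between any 2 of a group. The labels call the libraries biological replicates without saying what separates them. Replicate numbers were not taken to pair the stress libraries.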

Additional observations from a re-analysis of the deposited data

How the results depend on the processing

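The count of 1 gene of 16 called between genotypes in old cultures rests on a single gene and moved readily. It was 2 with DESeq2 and with the 6 stress libraries alone, 5 with limma voom and sample quality weights (Cre14.g617200, Cre02.g143801, Cre08.g360050, Cre17.g703800 and Cre02.g093500), and 0 with library totals. The fits without 1 library gave 0 to 2. The count over all tested genes, 239, became 1061 with DESeq2, 4023 with voom, 68 with library totals, 156 with at least 10 counts in every stress library and 53 to 373 without 1 library. DESeq2 also changed the balance, with 526 higher and 535 lower in vip1-1 against 149 and 90, and library totals gave 61 and 7. The median log2 fold change of the 16 genes, 0.39, ranged from 0.11 to 0.44 without 1 library and was 0.96 with library totals, a scaling that moved the median of all tested genes from 0.05 to 0.60.

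The deviations of same-numbered stress libraries correlated across genes at -0.07, -0.18 and 0.04, so the numbers were not taken as pairs in the stress comparison. Those of the control libraries, which enter the fit through the shared dispersion, correlated at 0.13, 0.14 and 0.36, over 0.1 for each number. A replicate block over the 12 libraries left 0 of the 16 genes called and 186 of all 15286 tested. At an unadjusted p under 0.05 it gave 2 of the 16 and 2425 of all genes. In the 6 stress libraries alone the block gave 0 of the 16 and 27 of all 14530 tested. Unadjusted, it gave 5 of the 16 and 2227 of all genes. Cre14.g617200 had log2 fold changes of 1.90 and 1.85 there, with adjusted p-values of 0.0529 and 0.110.

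With library totals, log2 fold changes turned above 0 for Cre02.g093500 (0.039), Cre02.g099400 (0.054), Cre02.g108550 (0.072), Cre09.g393000 (0.065) and Cre35.g759497 (0.63). With voom, Cre09.g393000 was at 0.43 and Cre14.g629920 at -0.026. Over the fits without 1 library, Cre35.g759497 ranged from -0.19 to 0.071, Cre09.g393000 from -1.01 to 0.71 and Cre03.g159254 from -0.45 to 1.03. The cause was not tested, and none of these values passed the adjusted threshold.

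The number of genes with the larger SD in wild-type was 5 or 6 of 16 under other scalings, FPKM, a prior count of 2 and the coefficient of variation, and 2 to 8 without 1 library. The rule chose 10 genes with 0 counts demanded in control, 41 with up to 10 allowed there, and 25 with 10 counts enough in stress. On TMM-scaled counts it chose 30, among them 14 of the 16, without Cre09.g399663 and Cre35.g759497. In these lists, and with 20 counts in all 6 or 50 in 5 stress libraries, only Cre14.g617200 was called higher in vip1-1. All lists hold it, so none is a new test. Of the 41, 1 was called lower. Depth limits the statement that a gene was off most in wild-type control replicate 1.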
